A study of Mus musculus with 3 samples.

Results

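The 8 genes described here make up the core of the polyamine pathway in mouse: Odc1, Azin1, Oaz1, Oaz2, Amd1, Srm, Sms and Sat1. They were found by gene symbol among 20808 genes with all 3 mRNA regions (5′ UTR, CDS, 3′ UTR) on their longest transcript. The data are ribosome footprints, the mRNA fragments that ribosomes shield from nuclease, from primary cortical neurons of CD-1 mouse embryos grown in culture. There are 3 libraries of 1 sample each. The WT library came from neurons left without drug. For Chx, the culture was exposed for 2 min to cycloheximide, a blocker of elongation. For Harr, it was exposed for 2 min to harringtonine, which traps ribosomes at start codons while those further along finish, followed by a cycloheximide pulse. Each library combined 3 dishes, the labels record the genotype as NA for all of them, and the buffers of all 3 libraries, WT included, contained cycloheximide at 100 μg per ml. With 1 library per treatment, none of the differences has a replicate check, no p-value can be given, and the 95% intervals cover counting error only.

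Polyamines (putrescine, spermidine and spermine) are small positively charged molecules that bind RNA and that all cells need. Odc1, ornithine decarboxylase, makes putrescine from ornithine. Amd1, S-adenosylmethionine decarboxylase, supplies the aminopropyl groups that Srm (spermidine synthase) and Sms (spermine synthase) add, and Sat1 acetylates spermidine and spermine for breakdown or export. Oaz1 and Oaz2 are antizymes, which bind ornithine decarboxylase and send it to the proteasome. Azin1, antizyme inhibitor, is a relative of ornithine decarboxylase that lacks its activity and takes antizyme away. Much of the control of the pathway is known to act on ribosomes. The antizymes need a +1 frameshift that polyamines promote, and the 5′ UTRs of Amd1 and Azin1 carry short upstream open reading frames (uORFs) at which polyamines stall ribosomes. All of this is background and not a result of these libraries.

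The libraries held 30219197 (WT), 35722483 (Chx) and 9754412 (Harr) aligned reads, so that 3 reads, the floor used for a count of 0, equal 0.0993, 0.0840 and 0.308 reads per 1000000. Over all genes the 5′ UTR took 6.14% of the reads in WT, 8.71% in Chx and 33.5% in Harr. Neuronal markers (8 genes) held 8335 to 10390.4 reads per 1000000 CDS reads, astrocyte markers (4 genes) 204 to 386, progenitor markers (4 genes) 187 to 220.2, and microglial and oligodendrocyte markers (4 genes each) at most 11.5, with Mog and Mobp at 0 in every library, P2ry12 at 0 in Chx and Harr and Cx3cr1 at 0 in Harr. On this scale the neuronal sum was highest in Harr, the astrocyte, microglial and oligodendrocyte sums were lowest in Harr, and the progenitor sum was at 187 in Chx and 188 in Harr. Per 1000000 aligned reads all 5 sums were lowest in Harr. The part of these cells in the results was not tested, and fewer cells of a type and less RNA per cell cannot be told apart in such bulk samples.

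The sequences on which this control is known to rest are shown first, as read from GENCODE M21 transcripts (mm10), 5′ to 3′. An ATG lay upstream of the main start codon in 5 of the 8 genes, and Oaz1, Oaz2 and Srm had none. Of all 20690 5′ UTRs with sequence, 55.4% held an ATG. The share was 90.9% among 5′ UTRs of a length like that of Odc1, 94.0% for Azin1, 81.5% for Amd1, 81.8% for Sms and 74.8% for Sat1. For the genes without an upstream ATG it was 62.2% (Oaz2), 40.7% (Srm) and 37.6% (Oaz1). Odc1 had 2 upstream ATGs, Azin1 3, Sat1 2, Amd1 1 and Sms 4. In the lines below the capitals mark the upstream ATG and, where the whole reading frame is shown, its stop codon. The first is the upper Odc1 frame of 8 codons (chr12:17544921-17544947, plus strand), and the second the first 30 bases of the lower frame of 10 codons (chr12:17545135-17545164). The third is the Amd1 frame of 6 codons (chr10:40302155-40302175, minus strand). The fourth is the Azin1 frame of 7 codons in exon 2 (chr15:38514482-38514505, minus strand), and the fifth the Azin1 frame of 9 codons (chr15:38501507-38501536), which closes 1 base before the main start codon.
Odc1 upper uORF: ATGacgacgtgctcggcgtataagTAG
Odc1 lower uORF: ATGggtcaggccagccgggccaccgtgctg
Amd1 uORF: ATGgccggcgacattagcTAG
Azin1 uORF in exon 2: ATGatagggggttccatctccTAA
Azin1 uORF nearest the CDS: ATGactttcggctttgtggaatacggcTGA

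Azin1 also has upstream stop-free stretches that hold no in-frame ATG. The longest, of 123 codons, ran from base 1 of the transcript to base 369 in exon 2, with 1 in-frame ATT at base 166. Another stretch of 174 nt, or 58 codons, began at base 287 of the transcript in exon 1 and ended at base 460 in exon 2. It held 1 in-frame ATT, at base 305, from which 52 codons remained up to the stop. An upstream coding region that begins at AUU and stalls ribosomes near its end is known from Azin1 of vertebrates. The last 30 bases of the stretch of 174 nt (chr15:38514505-38514534, minus strand) are given because the reads of exon 2 are described below, with the stop codon in capitals. It overlaps the ATG of the frame of 7 codons by 1 base.
Azin1 end of the stop-free stretch: aacgctgagccaccttgggaacctagcTGA

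The antizyme windows hold the site where the ribosome must move forward by 1 base to leave the stop codon and reach the rest of the CDS. Capitals mark the last codon of the first frame and the stop codon after it. The windows lie at chr10:80828280-80828309 for Oaz1 and at chr9:65686257-65686286 for Oaz2, both on the plus strand, and were identical at 28 of 30 positions.
Oaz1: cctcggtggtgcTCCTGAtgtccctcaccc
Oaz2: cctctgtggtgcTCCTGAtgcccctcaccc

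Several of the genes share sequence with pseudogenes, and whether reads with several alignments were kept, divided or dropped is not stated for these tables, although the alignment the study used to search for reading frames allowed several hits. The share of 25-nt words that also occur in transcripts of genes at other loci was 0.39% for Azin1, 18.3% for Srm, 19.6% for Sat1, 21.1% for Oaz2, 29.2% for Sms, 55.9% for Odc1, 58.1% for Oaz1 and 93.8% for Amd1. For Amd1 the retrocopy Amd2 alone shared 93.1%, and for Oaz1 the pseudogene Oaz1-ps shared 58.1%. The 5′ UTRs were mostly free of this. No word that starts in the 5′ UTR was shared in Azin1, Oaz1, Oaz2, Srm, Sms or Sat1, and in Odc1 0.267% were in the first exon, none in the second and 18.75% in the piece of 16 nt before the start codon, against 89.9% in the 5′ UTR of Amd1. None of the 5′ UTRs overlapped a CDS annotated on the same strand. In the CDS of Odc1 (84 nt) and of Sms (65 nt) 1 segment each, with all words shared, held 0 reads in every library, while other fully shared segments held reads.

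Per length, Oaz1 had the highest CDS level of the 8 genes in every library, at 239 (WT), 245 (Chx) and 280 (Harr) reads per kb and per 1000000 aligned reads (RPKM). Srm and Oaz2 followed in WT (74.99 and 88.2 RPKM) and in Chx (101 and 61.7 RPKM), and in Harr Oaz2 was at 54.9 and Srm at 28.5 RPKM. The order of this pair differed between WT and Chx. Azin1 had CDS levels of 18.7, 22.7 and 7.61 RPKM, Odc1 of 13.4, 20.6 and 17.5, and Sms of 15.5, 14.8 and 7.45 in WT, Chx and Harr. These 3 genes lay close together in WT. Amd1, at 3.79, 5.40 and 1.84 RPKM, and Sat1, at 4.14, 7.78 and 5.22, were the lowest. The Sat1 values rest on 27, 60 and 11 CDS reads of its longest transcript. On its protein-coding transcript Sat1 was at 2.63, 4.39 and 2.19 RPKM, below Amd1 in WT and Chx.

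The first question was where on each mRNA the ribosomes stood. In untreated neurons Azin1 carried most of its footprints in the 5′ UTR, 80.5% of 3962 reads (Wilson 95% interval 79.3 to 81.7), and Sat1 54.9% of 91 (44.7 to 64.8). In the other 6 genes the share was below that, at 15.7% in Oaz2, 10.9% in Sms, 9.78% in Odc1, 4.86% in Oaz1, 3.36% in Amd1 and 1.04% in Srm. Over all genes with at least 100 reads in 5′ UTR and CDS together, 1.73% had more reads in the 5′ UTR than in the CDS in WT, 2.36% in Chx and 32.6% in Harr. Among the 8 genes this held for Azin1 and Sat1 in WT and in Chx, and in Harr also for Odc1, Oaz2 and Sms, although Sat1 in WT had fewer reads than this minimum.

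In Chx the share was 70.8% in Azin1, 53.1% in Sat1, 34.0% in Odc1, 21.1% in Amd1, 16.4% in Sms, 14.5% in Oaz2, 13.3% in Oaz1 and 2.06% in Srm. In Harr it was 95.4% in Azin1, 90.8% in Sat1, 65.2% in Sms, 63.5% in Oaz2, 62.6% in Odc1, 44.4% in Amd1, 31.9% in Oaz1 and 11.3% in Srm. The interval of Harr lay above those of WT and Chx in all 8 genes. Those of WT and Chx overlapped in Oaz2 and Sat1, and in Srm and Sms they lay close without overlap. Azin1 was the only gene with a share lower in Chx than in WT beyond counting error. Reads were counted at their 5′ ends, so that a ribosome on the main start codon adds to the 5′ UTR count.

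**Figure D1:**
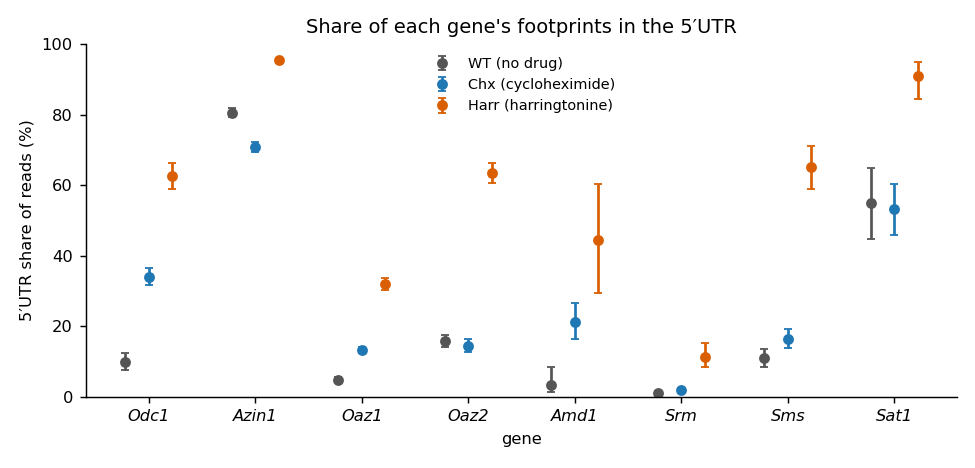
Share of the reads of each gene that fell into the 5′ UTR (y axis, %), with points for WT, Chx and Harr (1 library each) and bars for Wilson 95% intervals. Azin1 stands at 80.5% in WT, 70.8% in Chx and 95.4% in Harr, and Srm at 1.04%, 2.06% and 11.3%.

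The libraries were then compared by the 5′ UTR:CDS ratio, the number of 5′ UTR reads over CDS reads of the same gene, which cancels the library size and the level of the mRNA. The change is given as the log2 ratio of the 2 ratios with 0.5 added to each count, and a gene was counted when it differed at least 2-fold and had at least 10 reads in each region, summed over the pair of libraries. Harr was higher than Chx in 8 of 8 genes, where 92.1% of 10723 genes were, and higher than WT in 8 of 8, where 96.0% of 10314 were. The members' medians were 2.73 and 3.65 on the log2 scale, against 2.46 and 3.23 over all genes, and no member was lower (0.289% and 0.262% of all genes). Chx was higher than WT in 3 of 8 genes (Odc1, Amd1 and Oaz1), where 34.7% of 10430 genes were, and lower by 2-fold in none (1.85% of all genes). The counts were therefore close to the background, and the members differed in the size of the change. For Harr against Chx it ran from 1.63 (1.48 to 1.78) in Oaz1 to 3.58 (3.30 to 3.86) in Oaz2, and for Harr against WT Azin1 was at 2.51 (2.20 to 2.82) and Odc1 at 3.94 (3.50 to 4.39). For Chx against WT it ran from a log2 ratio of −0.78 (interval −0.93 to −0.63) in Azin1 to 2.24 (1.83 to 2.65) in Odc1 and 2.79 (1.36 to 4.22) in Amd1, with quartiles of 0.14 and 1.245 over all genes. With 3′ UTR reads in place of CDS reads, 5 genes had enough reads. Of these, Azin1, Oaz1 and Srm were lower in Harr than in Chx, as was the median of all genes (−1.17), and Oaz2 was at 2.12. The Oaz1 value of −0.31 is given without an interval and rests on 30 3′ UTR reads in Chx and 36 in Harr. For Sat1 this reference is void, since the 3′ UTR reads of its longest transcript (14 in WT, 22 in Chx and 0 in Harr) lay almost all in CDS exons of its protein-coding transcript, whose own 3′ UTR held 0, 1 and 0. With that reference Azin1 in Chx against WT, which rests on 6 and 12 reads of the 3′ UTR, was at 0.68 in place of −0.78, where the median of all genes was 1.87.

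**Figure D2:**
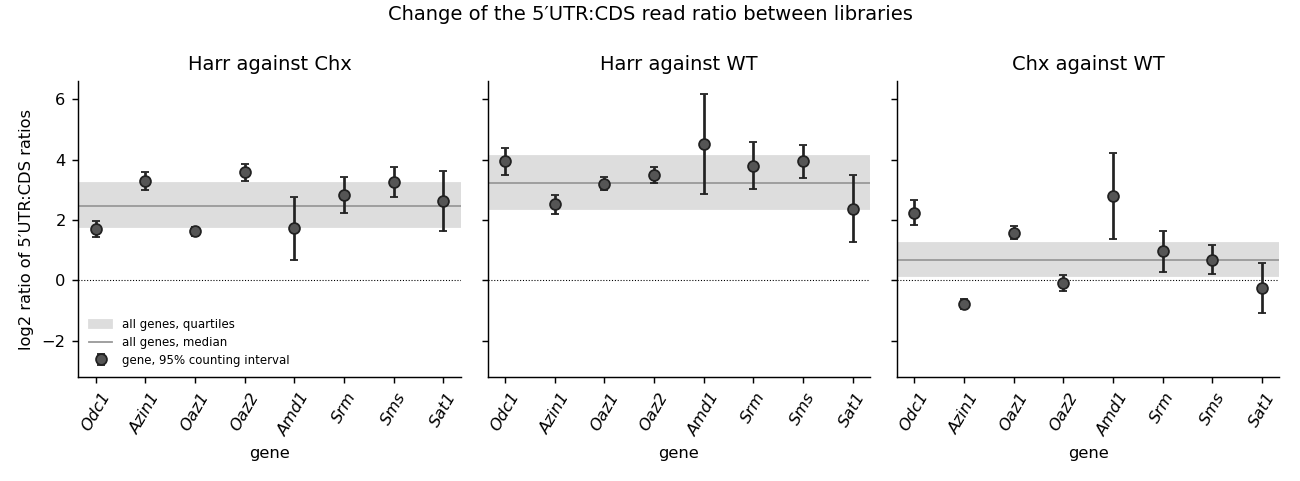
Change of the 5′ UTR:CDS read ratio between 2 libraries (y axis, log2) for each gene, with 95% counting intervals, in 1 panel per pair of libraries. The grey band and line are the quartiles and median of all genes. In the panel of Chx against WT, Odc1 (2.24), Amd1 (2.79) and Oaz1 (1.58) lie above the band. Azin1 (−0.78), Sat1 (−0.25) and Oaz2 (−0.08) lie below it.

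Odc1, the first enzyme of the pathway, has a 5′ UTR of 489 nt in 3 pieces on chromosome 12, where the median over all genes was 177 nt. The 5′ UTR held 61 reads in WT, 526 in Chx and 397 in Harr, and the CDS held 563, 1021 and 236. The ratio was thus 0.108 in WT, 0.515 in Chx and 1.68 in Harr, a log2 change of 2.24 ± 0.21 (standard error from counts) for Chx against WT, 1.71 ± 0.14 for Harr against Chx and 3.94 ± 0.23 for Harr against WT. Without the first CDS segment the changes against Harr were larger, 3.75 and 6.12. Most of the difference between Chx and WT lay in exon 1 (17544794 to 17545168, 375 nt), which contains both upstream ATGs. It held 40 reads in WT, 476 in Chx and 299 in Harr. Exon 2 (17547096 to 17547193, 98 nt), which has no ATG, held 11, 26 and 76.

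Against the CDS, the log2 change of Odc1 exon 1 from WT to Chx was 2.70 (2.21 to 3.18), and that of exon 2 was 0.35 (−0.66 to 1.36). The intervals do not overlap. In Harr both exons had a similar density, 4.68 and 4.55 times that of the CDS, whereas in Chx they had 1.72 and 0.360 times and in WT 0.263 and 0.276 times. Exon 1 and exon 2 were thus alike in WT and in Harr, and exon 1 was the denser in Chx. The tables give 1 count per segment, so the position of these reads relative to the reading frames inside exon 1 was not analysed here.

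Within the Odc1 CDS, few Harr reads lay beyond the first segment. The first CDS segment (102 nt, 7.36% of the CDS) held 127 of 563 reads in WT (22.6%, Wilson interval 19.3 to 26.2), 299 of 1021 in Chx (29.3%, 26.6 to 32.1) and 196 of 236 in Harr (83.1%, 77.7 to 87.3). Genes with a start segment and a CDS of like length had medians of 8.86%, 11.04% and 15.0%, with an upper quartile of 25.9% in Harr. Of the 40 other Harr reads, 21 were in the last CDS segment. All words of the first segment also occur at other loci, and the part of shared reads in this value was not tested. Azin1, whose CDS is divided into 10 segments like that of Odc1, with 7 of the same length at the same place, had 14.6%, 16.6% and 16.0% of its CDS reads in the first segment, and none of its CDS words was shared.

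Azin1 (5′ UTR of 590 nt in 3 exons on chromosome 15, minus strand) had the most 5′ UTR reads of the 8 genes, with 3190 in WT, 2664 in Chx and 2408 in Harr. Its CDS held 760, 1091 and 100. The reads per CDS read were 4.20, 2.44 and 24.1, so that Harr was the highest and Chx the lowest. The log2 change was −0.78 ± 0.08 for Chx against WT, 3.30 ± 0.16 for Harr against Chx and 2.51 ± 0.16 for Harr against WT. The fall in Chx was again not spread evenly over the exons.

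Exon 2 of Azin1 (38514473 to 38514609, 137 nt), in which both of these stop-free stretches end and the frame of 7 codons lies, held 1892 reads in WT, 966 in Chx and 579 in Harr. This was 59.3% of the 5′ UTR reads in WT, 36.3% in Chx and 24.0% in Harr. Exon 1 (38518909 to 38519266, 358 nt) held 1223, 1597 and 1719 reads, and exon 3 (95 nt), which ends at the start codon, 75, 101 and 110. Per nucleotide, exon 2 had 24.5 times the CDS density in WT (22.5 to 26.7), 8.71 times in Chx (7.98 to 9.50) and 56.9 times in Harr. Exon 1 had 6.05, 5.51 and 64.7 times, and exon 3 1.40, 1.31 and 15.6 times. Exon 2 was therefore the densest segment of Azin1 in WT and Chx, and exon 1 was slightly above it in Harr.

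Relative to the CDS, Azin1 exon 2 was lower in Chx than in WT by a log2 ratio of −1.49 (−1.66 to −1.32), while exon 1 was at −0.14 (−0.31 to 0.03) and exon 3 at −0.09 (−0.54 to 0.36). The interval of exon 2 lay apart from those of the other exons, which both include 0. For Harr against WT exon 1 was at 3.41 and exon 3 at 3.47, and exon 2 at 1.21 (0.88 to 1.54). The loss of reads against the CDS between WT and Chx was thus found in exon 2. The Azin1 3′ UTR of 2934 nt held 12, 6 and 16 reads. An antisense gene, Gm49077, spans exon 1 on the other strand, and its transcript held 9, 11 and 7 reads in all.

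**Figure D3:**
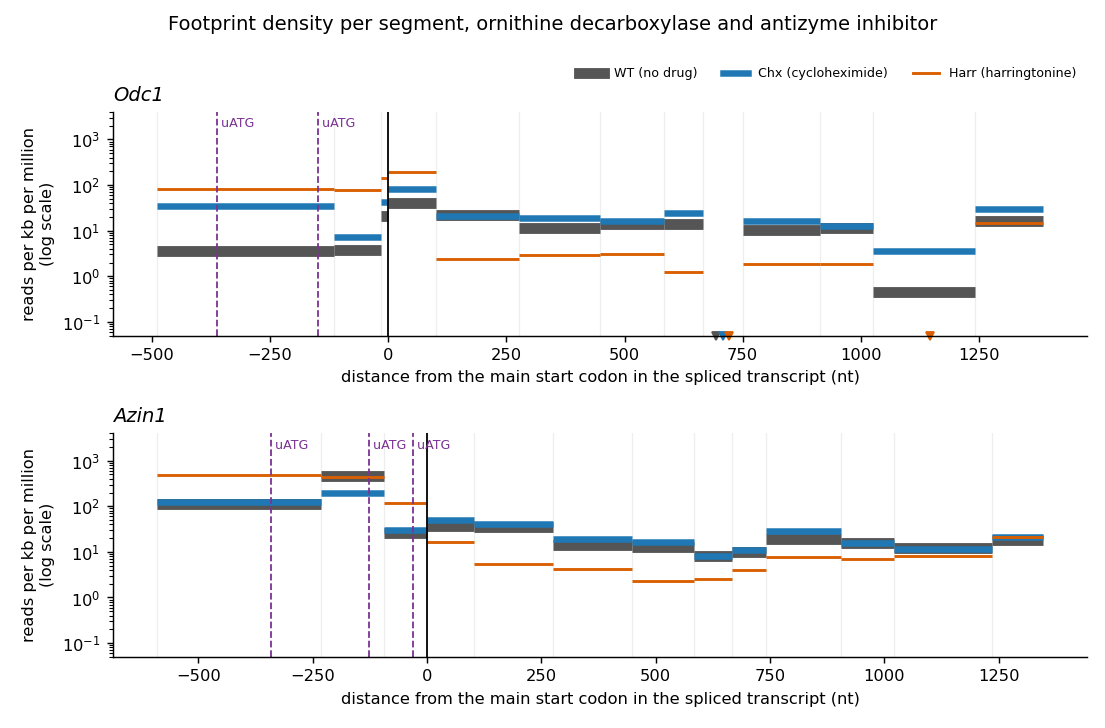
Footprint density in each 5′ UTR and CDS segment of Odc1 and Azin1 (y axis, reads per kb and per 1000000, log scale) against the distance from the main start codon (x axis, nt), with thick grey lines for WT, blue for Chx and thin orange for Harr. Dashed lines mark upstream ATGs (uATG) and triangles segments with 0 reads. Exon 1 of Odc1 is at 3.53 in WT, 35.5 in Chx and 81.7 in Harr, and exon 2 of Azin1 at 457, 197 and 433.

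Amd1, which has the single upstream frame shown above, held 4 reads in WT, 52 in Chx and 16 in Harr in its 5′ UTR of 328 nt, and 115, 194 and 18 in its CDS. The reading frame of 6 codons starts at base 12 of the transcript, 317 nt before the main start codon. The 5′ UTR:CDS ratio was 0.0348, 0.268 and 0.889, a log2 change of 2.79 ± 0.73 for Chx against WT and 1.72 ± 0.54 for Harr against Chx. The first of these rests on 4 WT reads and was 1.93 with a pseudocount of 5. Chx and Harr were both above WT beyond counting error. All 8 CDS segments of Amd1 shared every word with other loci, so that none of these reads can be assigned to Amd1 with certainty. The retrocopy Amd2 had 11, 40 and 23 reads in its 5′ UTR and 131, 225 and 29 in its CDS, a log2 change of 1.04 ± 0.51 for Chx against WT.

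The synthases differed from each other. Srm, spermidine synthase, has no upstream ATG in its 5′ UTR of 117 nt, which held 22 reads in WT, 69 in Chx and 38 in Harr, beside 2060, 3268 and 253 in the CDS. Its 5′ UTR:CDS ratio of 0.0107, 0.0211 and 0.150 was the lowest of the 8 genes in each library. Sms, spermine synthase, has 4 upstream ATGs in 334 nt, the longest upstream frame having 69 codons and the last running into the CDS. Its 5′ UTR held 63, 115 and 152 reads and its CDS 517, 584 and 80, a ratio of 0.122, 0.197 and 1.90. The log2 change for Chx against WT was 0.96 ± 0.35 in Srm and 0.69 ± 0.24 in Sms, with overlapping intervals, so that no difference between the synthases in this change was detectable at this depth. For Harr against Chx it was 2.84 ± 0.30 and 3.26 ± 0.25. In Sms 10 of 11 CDS segments shared every word with other loci.

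Sat1, the acetyltransferase, held 50 (WT), 93 (Chx) and 109 (Harr) reads in its 5′ UTR of 281 nt and 27, 60 and 11 in the CDS of the longest transcript. That transcript (ENSMUST00000152463.7) is annotated as a target of nonsense-mediated decay, since it includes an extra exon on the X chromosome (155215121 to 155215230, 14 nt of CDS and 96 nt of 3′ UTR). Inclusion of such an exon, which places a premature stop codon, is a known brake on Sat1. The exon held 0 reads in all 3 libraries, which allows up to 0.0993 reads per 1000000 in WT, 0.0840 in Chx and 0.308 in Harr. Because reads were placed by their 5′ ends, ribosomes on these 14 nt of CDS are largely counted in the exon before. The 0 therefore does not show whether the exon was included, which was not tested. On the protein-coding transcript (ENSMUST00000026318.14) the CDS of 516 nt held 41, 81 and 11 reads, and the 5′ UTR:CDS ratio was 1.22 in WT, 1.15 in Chx and 9.91 in Harr. Of the upstream ATGs, the one at base 208 opens a frame of 44 codons that runs into the CDS. The log2 change for Chx against WT on the longest transcript was −0.25 (−1.07 to 0.57), which includes 0. The start-codon segment held 48 of the 60 CDS reads in Chx and 13 of the 27 in WT. Without that segment the change turned to 1.10, which rests on the few remaining CDS reads and is given without an interval.

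The second question concerned the antizymes. Ribosomes that do not shift frame leave the mRNA at the stop codon shown above, so the density of footprints before and after it was compared within each library. In Oaz1 the 2 CDS segments before the site (201 nt, ending at 80828291) held 4057 reads in WT, 5125 in Chx and 1536 in Harr. The 4 segments after it (480 nt, from 80828296, with 4 nt at the site in no segment) held 866, 831 and 327. Per nucleotide, the part after the site had 0.0894 times the density of the part before it in WT (exact conditional interval 0.0830 to 0.0962), 0.0679 times in Chx (0.0630 to 0.0731) and 0.0891 times in Harr (0.0789 to 0.101). Genes of like CDS length, divided at the segment boundary nearest to the same point, had medians of 0.794, 0.691 and 0.407, with lower quartiles of 0.556, 0.491 and 0.207. Oaz1 was below the lower quartile in all 3 libraries, and WT and Harr had equal values within counting error.

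In Oaz2 the part before the site (96 nt, ending at 65686271) held 1035, 690 and 115 reads in WT, Chx and Harr, all in the second segment, and the part after it (474 nt) 485, 566 and 190. The first segment, of 20 nt, held 0 reads. Genes with a start segment and a CDS of like length also had a median of 0% of their reads there. Without that segment the density ratio after against before the site was 0.0751 in WT, 0.132 in Chx and 0.265 in Harr. With all segments the density after the site was 0.0949 times that before it in WT (0.0850 to 0.106), 0.166 times in Chx (0.148 to 0.186) and 0.335 times in Harr (0.264 to 0.426). The 3 libraries thus differed beyond counting error. Genes of like length had medians of 0.991, 0.776 and 0.347. Oaz2 was below their lower quartile in WT (0.670) and Chx (0.529) and close to the median in Harr.

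The step was sharpest at the Oaz2 site itself. The exon that contains the site is divided by it into 76 nt with 1035, 690 and 115 reads and 81 nt with 34, 29 and 4 reads, a density ratio of 0.0308 in WT, 0.0394 in Chx and 0.0326 in Harr. The next exon (176 nt) held 311, 375 and 155 reads. In Oaz1 the segments on either side of the site, of 55 nt and 87 nt, held 1063, 981 and 370 reads and 231, 139 and 59 reads, a ratio of 0.137, 0.0896 and 0.101. These segments were picked after the values were known, and in Oaz2 in Harr, where 4 reads lie after the site, the ratio was far below that of the whole CDS (0.335).

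Sequence sharing also differed across the site, though not in every segment. Before the site 82.9% and 56.4% of the words of the Oaz1 segments were shared, and after it 100%, 100%, 100% and 82.1%. In Oaz2 the segment of 20 nt before the site, which held 0 reads, had 85% and that of 76 nt 11.8%. After the site the segment of 81 nt had 100%, and the exon of 176 nt, with more reads, 61.4%. The pseudogenes Oaz1-ps, Oaz2-ps and Gm7543 held 1700, 341 and 816 reads in WT. The part of shared reads in the step was not tested. Because reads were placed by their 5′ ends, ribosomes that have just passed the site are counted before it.

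**Figure D4:**
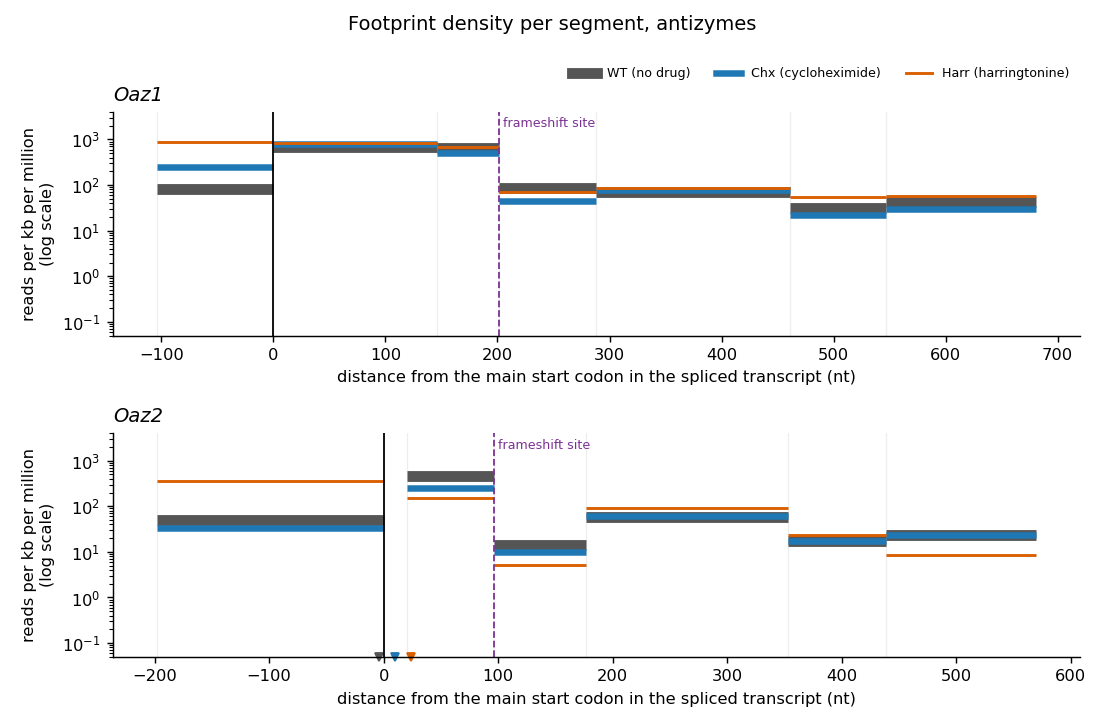
Footprint density in each 5′ UTR and CDS segment of Oaz1 and Oaz2 (y axis, reads per kb and per 1000000, log scale) against the distance from the main start codon (x axis, nt), with thick grey lines for WT, blue for Chx and thin orange for Harr. The dashed line marks the frameshift site and triangles segments with 0 reads. At the site Oaz1 drops from 640 to 87.9 in WT, and Oaz2 from 451 to 13.9.

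In the antizyme 5′ UTRs the libraries separated differently. Oaz1 (104 nt) held 254 reads in WT, 919 in Chx and 889 in Harr, with 4923, 5956 and 1863 in the CDS, and Oaz2 (198 nt) held 300, 234 and 681, with 1520, 1256 and 305. The ratio in Oaz1 was 0.0516, 0.154 and 0.477, with a log2 change for Chx against WT of 1.58 (1.37 to 1.79). In Oaz2 it was 0.197, 0.186 and 2.23, with a change of −0.08 (−0.35 to 0.19). The intervals do not overlap. Neither gene has an upstream ATG, and the source of the difference was not tested. For Harr against Chx the order was the opposite, at 1.63 ± 0.08 in Oaz1 and 3.58 ± 0.14 in Oaz2.

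The level of footprints on the CDS was compared per 1000000 CDS reads of each library, with a minimum of 100 CDS reads over the pair, which left out Sat1. Between Chx and WT, none of 7 members was lower or higher by 2-fold, where 0.115% and 0.194% of all genes were. The log2 changes ran from −0.55 (−0.66 to −0.45) in Oaz2 to 0.58 (0.43 to 0.73) in Odc1, with quartiles of −0.14 and 0.20 over all genes. Odc1, Amd1 (0.47), Srm (0.39) and Azin1 (0.24) were higher in Chx beyond counting error, Oaz2 was lower, and Oaz1 (−0.0030) and Sms (−0.10) had intervals that include 0.

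Between Harr and Chx, 2 of 7 members had a CDS level at least 2-fold lower, against 13.9% of all genes, and none was higher (4.27% of all genes). These were Srm, at −1.27 ± 0.09, and Azin1, at −1.02 ± 0.15, which lies at the threshold and is at less than 2-fold with a pseudocount of 5. The medians of genes of like CDS length were −0.54 and −0.20. Oaz1 was higher in Harr by 0.74 ± 0.04 and Oaz2 by 0.38 ± 0.09, where genes of like length were at −0.67 and −0.73. Odc1 was at 0.31 ± 0.10. Without the start-codon segment of every CDS, an option added once values were known, Odc1 was at −1.73 for Harr against Chx and at −1.26 for Harr against WT, a change of direction, and Oaz1 was at 1.05 for Harr against Chx, past 2-fold. Between Harr and WT no member was 2-fold lower or higher (14.6% and 4.83% of all genes), and values ran from −0.88 ± 0.10 in Srm to 0.89 ± 0.11 in Odc1. Counted per 1000000 aligned reads instead, which lowers the median of all genes by 0.51, 4 members were at least 2-fold lower than in WT, where 29.2% of all genes were. For Harr against Chx on this scale, 3 of 7 members were at least 2-fold lower (31.3% of all genes). Oaz1 was then at 0.20, and Oaz2 (−0.17) and Odc1 (−0.24) changed direction, where the median of all genes was −0.60.

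**Figure D5:**
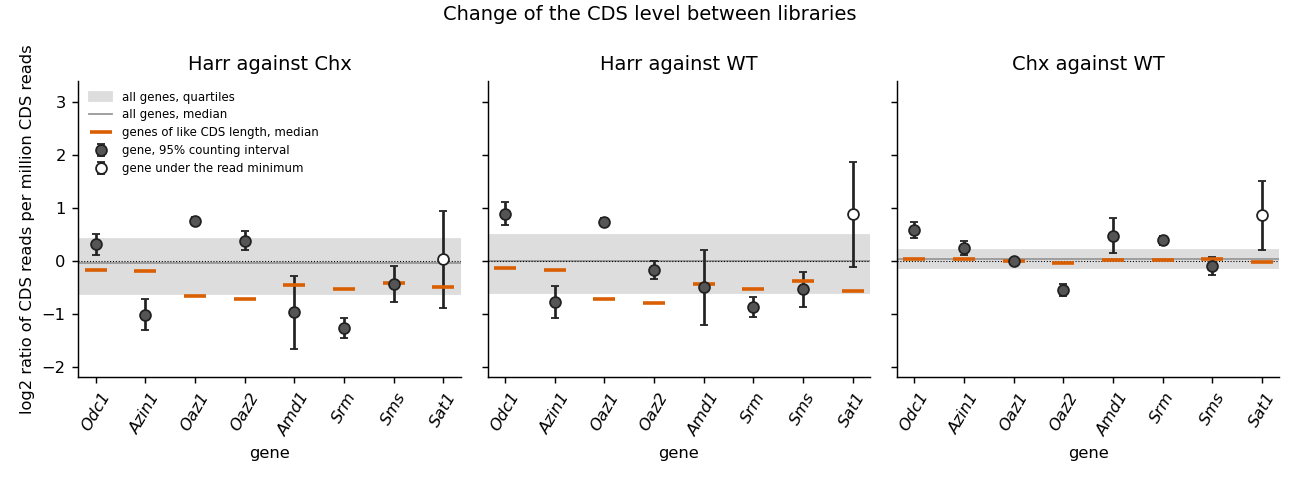
Change of the CDS level (y axis, log2, from reads per 1000000 CDS reads) between 2 libraries for each gene, with 95% counting intervals. The open circle is Sat1, which has too few reads. The grey band and line are the quartiles and median of all genes, and orange dashes the medians of genes of like CDS length. Srm (−1.27) and Azin1 (−1.02) lie lowest and Oaz1 (0.74) highest in the panel of Harr against Chx.

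A wider list of 24 genes around the pathway was described in the same way. It covers supply of precursors, regulators, oxidation, transport, use of spermidine, salvage of methylthioadenosine and the retrocopy Amd2. Oaz3, an antizyme of testis, had too few reads for any comparison. For the 5′ UTR:CDS ratio, Harr was 2-fold or more above Chx in 21 of 22 genes (92.1% of all genes) and above WT in 22 of 22 (96.0%). Chx was above WT in 6 of 21 (34.7%), with a median of 0.32, and below it by 2-fold in none. For the CDS level, Harr lay 2-fold or more below Chx in 5 of 21 genes (13.9%) and below WT in 6 of 19 (14.6%). It lay above WT by that much in 1, Smox, the spermine oxidase, at 1.27 ± 0.13, named here after its value was seen (4.83% of all genes). Between Chx and WT no CDS level differed by 2-fold in 22 genes.

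The 6 genes of this list with the most CDS reads were Slc3a2, Eif5a, Oat, Atp13a2, Mat2a and Dohh. Eif5a, the translation factor that carries hypusine made from spermidine, held 937, 1199 and 1799 5′ UTR reads and 10264, 10089 and 780 CDS reads in WT, Chx and Harr, and its CDS level was lower in Harr than in Chx by a log2 ratio of −1.27 ± 0.05. Dohh, which completes hypusine, was at −0.74 ± 0.10. Mat2a, which makes S-adenosylmethionine, was at −1.27 ± 0.10, and Oat, ornithine aminotransferase, at −0.64 ± 0.06. Slc3a2, a subunit of amino acid transporters, was higher by 0.39 ± 0.02, and Atp13a2, a lysosomal polyamine exporter, was at −0.57 ± 0.08. The 5′ UTR:CDS change of Chx against WT was −0.66 ± 0.15 in Oat and 1.05 ± 0.20 in Atp13a2, and between 0.21 and 0.62 in the other 4. Of these 6 genes, the share of words also found at other loci was highest in Eif5a (19.5%) and Mat2a (16.1%).

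The genes with the most similar ratios were looked for among 5885 genes with at least 100 CDS reads in every library, by the distance over 3 values, the log2 5′ UTR:CDS ratio in each library. For Oaz1 this was Dcaf6, at a distance of 0.06, with ratios of 0.0514 in WT, 0.148 in Chx and 0.484 in Harr. For Odc1 it was Samd10, at 0.30, with 0.122, 0.438 and 1.75. For Azin1 the nearest, Shc3, was at 1.15, with ratios of 3.86, 3.26 and 11.5. No gene came as close to Azin1 as the others did to Oaz1 and Odc1.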

How the data were processed

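The authors deposited 9 tables, 1 per library and region (5′ UTR, CDS, 3′ UTR), in the format of Plastid. The deposited counts are raw reads per exon segment of each transcript. The deposited coverage signal is the count per nucleotide and the deposited RPKM the count per kb and per 1000000 reads. Per the file headers, reads of 25 to 100 nt were counted at their 5′ end (offset 0) once ribosomal and duplicate reads had been taken out. The build was mm10, per the submitters' processing notes. The study's methods name Rsubread as the aligner for Plastid counts of its other ribosome profiling experiment, and TopHat, with multiple hits allowed, for its search for reading frames in libraries of this kind. Which alignment these tables come from is not given in the sources used here.

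Here only counts were used, and RPKM was recomputed from them. Of 142446 transcript identifiers, 99.3% matched GENCODE M21. The longest transcript per gene was used, as in the study's methods. The free-text descriptions of the samples name fractions of another experiment and were not used for grouping. Libraries were grouped by the recorded treatment. Log2 ratios used a pseudocount of 0.5 and 95% counting intervals. There were no replicates, so the intervals, and the floor of 3 reads, describe counting error alone. Genes of like length were those at 0.8 to 1.25 times the length. Exact conditional intervals were used for density ratios. Statistics were checked on simulated data in Python 3.11.15 with NumPy 2.4.6, pandas 2.3.3 and SciPy 1.17.1.

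The members, gene lists and tests were chosen with earlier results of these data known. Genes named are the 8 members, the 6 of the wider list with the most CDS reads, the nearest genes of Odc1, Oaz1 and Azin1, and genes that share at least 5% of the words of a member. Oaz3 and Smox were named besides. An item of the wider list is not reported here. Alternatives varied the pseudocount, transcript, read minimum, reference region, scaling and segments used.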

Additional observations from a re-analysis of the deposited data

How the results depend on the processing

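No paired analysis was possible because each treatment has 1 library, and for the same reason no replicate could be left out. The 5′ UTR:CDS counts were within 1.5 times the reported ones with a pseudocount of 5, the most-read or the protein-coding transcript, other read minimums, and when the counting interval also had to exclude 0. With the 5′ UTR piece that touches the start codon left out, 2 genes (Odc1 and Azin1) could be used, of which Harr was above Chx in 2 (90.5% of all genes) and above WT in 2 (93.7%), and Chx above WT in 1 (35.3%), so the lower counts follow from the fewer genes. With 3′ UTR reads as the reference, Harr was above Chx in 2 of 5 genes (14.4% of all genes) and above WT in 3 of 5 (45.2%), and Chx was above WT in 2 of 5 (71.6%), with Srm passing 2-fold at 3.26. Sat1 is among the genes counted for Harr, although its reference reads lay almost all in CDS exons of its protein-coding transcript, so its 3′ UTR values are void. Under it Srm (−2.97), Oaz1 (−0.31) and Azin1 (−1.49) turned to lower in Harr than in Chx. Azin1 (−0.81) also did so against WT, and the cause was not tested. These values are given without intervals. They rest on 44, 30 and 36 3′ UTR reads of Oaz1 in WT, Chx and Harr, and on 12, 6 and 16 of Azin1. The directions of Oaz1, and of Azin1 against WT, are therefore not secure. The start-codon segment of the CDS was left out, an alternative added after seeing the data like the protein-coding transcript and the 2 antizyme segments. Then 5 genes (37.7% of all) had a higher ratio in Chx than in WT, with Sat1 turning to 1.10 on few CDS reads. In 2 genes (22.1%) the CDS level was lower in Harr than in WT. Odc1 turned to −1.73 against Chx and −1.26 against WT, and Oaz1 passed 2-fold higher against Chx at 1.05. A CDS level 2-fold lower in Harr than in Chx was found in 1 gene with a pseudocount of 5 (11.1% of all genes). Per 1000000 aligned reads it was found in 3 genes against Chx (31.3%) and in 4 against WT (29.2%). On that scale Oaz2 and Odc1 turned to lower in Harr than in Chx.

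For the antizymes, leaving out the start segment gave a density ratio of 0.0971 (Chx) and 0.101 (Harr) in Oaz1 and 0.132 (Chx) and 0.0751 (WT) in Oaz2. The 2 segments at the site gave 0.137 (WT), 0.0896 (Chx) and 0.101 (Harr) in Oaz1 and 0.0308, 0.0394 and 0.0326 in Oaz2. With 5′ UTR and CDS reads as the total, the 5′ UTR share was 69.1% for Oaz2 in Harr and 60.8% (Chx) and 64.9% (WT) for Sat1. All other shares stayed within their intervals. Depth limits Sat1 and Amd1 most, with 11 and 18 CDS reads in Harr.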
